A study of Arabidopsis thaliana with 48 samples.

Results

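A set of 152 Arabidopsis thaliana genes stood lower after induction in each of 8 lines. Among them were 17 genes of the thylakoid and the light reactions, 13 of carbon fixation, 8 of photorespiration, 5 of chlorophyll synthesis and 6 of the chloroplast NDH complex, with 10 regulators of light and clock responses and the small RNA precursor TAS3. The genes were chosen by their values. Each count was divided by the total of its library and multiplied by 1000000 (CPM), and the change of a line was the log2 of its mean induced CPM plus 1 over its mean mock CPM plus 1. A gene was kept where this change was −0.7 or lower in all 8 lines and the mean over the 24 mock libraries was at least 10 CPM. Of 28496 genes counted, 9315 reached that mock level and 172 of them met the threshold on the change. Removal of 16 genes of the LHCA, LHCB, PSA and PSB families and of 4 genes named under the rule left 152. Each difference between induced and mock libraries given here was used for that choice, so these differences are a description with no test.

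All libraries came from whole T2 seedlings, collected at 10 days after growth in long days, on soil or on agarose plates. At 9 days they were sprayed 10 times, and 24 h later they were harvested. The induced seedlings received 50 µM β-estradiol, with DMSO at 1% and Silwet L-77 at 0.005%, and the mock seedlings DMSO and Silwet alone. The lines were labelled PHB, PHB-SDdelta, CNA and CNA-SDdelta, and CNA followed by PpHOX32, SmHOX32, KnC3HDZ or KnC3HDZ_8m (CNA-PpHOX32 and so on), with 3 libraries for each line and treatment, 48 in all. CNA (CORONA) and PHB (PHABULOSA) belong to the HD-ZIPIII family of plant transcription factors, which pair a homeodomain with a leucine zipper and are known for roles in the upper leaf side, the vasculature and the meristem. The labels explain neither the suffixes nor the promoter of the constructs, nor how many plants or independent transformants a library holds. No seedlings without a construct were analysed here, so an effect of β-estradiol itself and one of the induced protein cannot be told apart.

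Most of the proteins of the chloroplast are encoded in the nucleus. The thylakoid membranes capture light and move electrons to make ATP and NADPH, the Calvin cycle in the stroma uses both to fix CO2, and photorespiration recovers carbon lost when Rubisco takes up oxygen in place of CO2. In green seedlings the nuclear genes for these steps are known to be strongly expressed in leaf mesophyll and to respond to light, the circadian clock, sugars and the state of the plastid.

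The 48 libraries held 1808765 to 37222617 counts, with a median of 5944946.5. The transcript named by the construct, which the counts do not separate from the endogenous one, was higher after induction in all 8 lines, by 0.99 ± 0.42 (SE) on the log2 scale in CNA-SDdelta to 3.65 ± 0.52 in PHB. This passed the edgeR quasi-likelihood test at a Benjamini-Hochberg adjusted p under 0.05 in 7 lines and not in CNA-SDdelta (adjusted p = 0.216), where it was 0.59 to 1.29 in fits without a single library. In 4 of the 7 lines the call was lost in some of 6 fits that each left out 1 library (adjusted p between 0.0542 and 0.175 by edgeR). CNA-KnC3HDZ kept it only without induced 3 and CNA-SmHOX32 only without induced 3 or mock 3. CNA-KnC3HDZ_8m lost it without induced 1, mock 2 or mock 3, and CNA-PpHOX32 without induced 2, mock 2 or mock 3. Unlike the main fit, the fits without a library were given a fixed trend of the spread. The part of the library left out and of this setting cannot be told apart. The 5 leaf mesophyll markers RBCS1A, RCA, GAPA, GUN5 and CA1, of which RCA, GUN5 and CA1 belong to the set, summed to 8367 to 17955 CPM in mock and to 3006 to 9636 CPM in induced libraries, and all 5 were lower in every line. The 5 root markers summed to 938.3 to 1752 CPM in mock and 852 to 1672 CPM in induced libraries, and the 5 epidermal markers to 391 to 685 and 290 to 718 CPM. Markers of phloem (4 genes), xylem, the guard cell lineage, the shoot meristem, and flowers and seeds (5 genes each) summed to 234 CPM or less in every library. In xylem the sum was 11.5 to 108 CPM in mock, with a median of 44.9, and 0.665 to 72.9 CPM in induced libraries, with a median of 18.1; its part in the changes of the set was not tested. No marker was at 0 in all libraries. Fewer cells of a type and less RNA per cell cannot be told apart in whole seedlings.

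The 152 genes together took a smaller share of the library after induction. They held 2.38% to 4.08% of all counts in the mock libraries, with a median of 3.03%, and 0.824% to 1.80% in the induced libraries, with a median of 1.11%. The treatments did not overlap in any line or across all libraries. The largest mock share was 3.97% ± 0.0951 (SD, n = 3) in CNA-SDdelta, where the induced share was also the largest, 1.73% ± 0.0632. The smallest were those of PHB, 2.60% ± 0.316 in mock and 0.915% ± 0.118 in induced libraries.

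**Figure D1:**
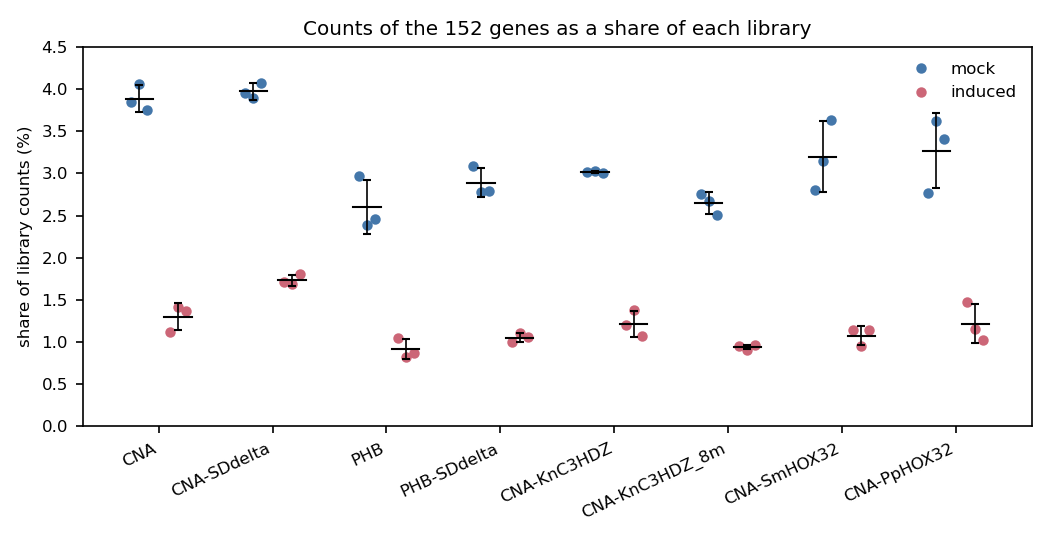
Share of each library's counts (%, vertical axis) held by the 152 genes, for the 8 lines (horizontal axis). Points are single libraries, black bars are means and error bars the SD of 3 libraries; the mock libraries lie at 2.38% to 4.08% and the induced ones at 0.824% to 1.80%.

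The median change of the 152 genes was −1.89 in CNA, −1.72 in CNA-SmHOX32, −1.62 in PHB, −1.53 in CNA-PpHOX32, −1.50 in CNA-KnC3HDZ, −1.46 in CNA-KnC3HDZ_8m, −1.38 in PHB-SDdelta and −1.20 in CNA-SDdelta. Over the 9315 genes at or above 10 CPM in mock, the median change of a line lay between −0.11 and 0.12. Scaling by TMM in place of the library total moved the latter by −0.15 in CNA-PpHOX32, where the median of the set became −1.69, and by less than 0.1 elsewhere; relative to all genes the set stood at −1.63 by the total and −1.64 by TMM there. The change of single genes, averaged over the 8 lines, ran from −4.20 to −0.92 with a median of −1.60. It was −2 or lower for 39 genes and above −1 for 6. The change nearest 0 was most often that of CNA-SDdelta (42 genes), and the lowest was most often that of CNA (47 genes) or CNA-SmHOX32 (34 genes).

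**Figure D2:**
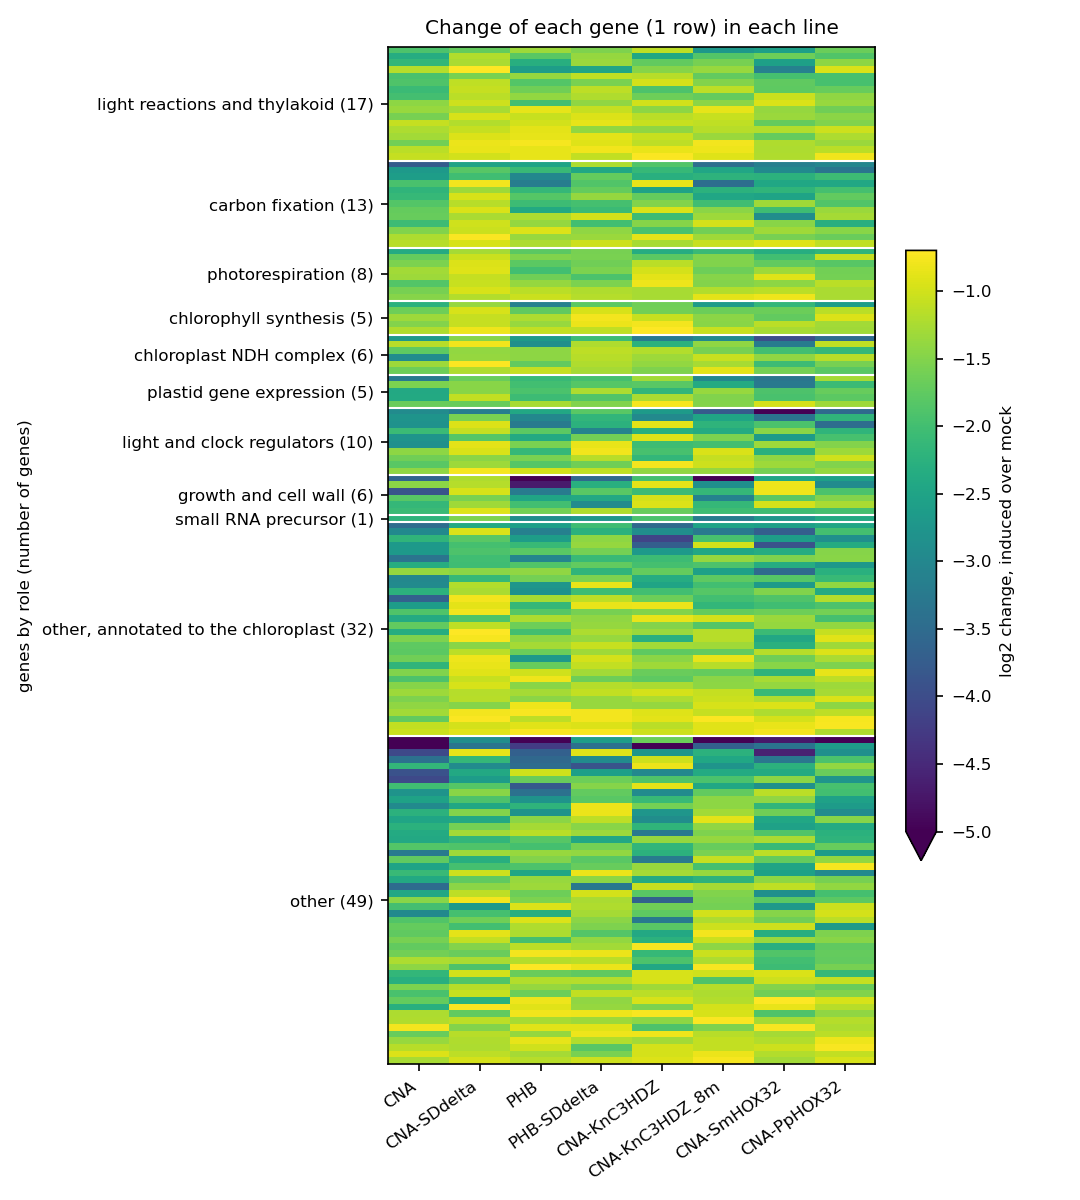
Change on induction of each of the 152 genes (horizontal bands, grouped by role, the number of genes in brackets) in the 8 lines (horizontal axis). Colour gives the log2 change with 1 CPM added to both means; changes below −5 have the darkest colour, and the CNA-SDdelta column is the palest, with a median of −1.20.

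In 78 genes the 3 induced libraries lay below the 3 mock libraries of the same line in all 8 lines, against 0.825% of the 18909 genes tested and 1.67% of those at or above 10 CPM in mock. In 116 genes this held in 7 or more lines, and in 6 genes in 4 or fewer, without a share over all genes computed for either. In 19 genes all 24 induced libraries lay below all 24 mock libraries, which was so for 0.148% of the genes tested and 0.301% of those at or above 10 CPM. These were the B-box gene COL2, the small RNA precursor TAS3, GUN4 and CRD1 of chlorophyll synthesis, ATPD, PETE1, FED A and CAO of the thylakoid, GAPA-2, CRB, SIGA, ACP4, and the genes AT4G13500, AT5G13770, AT4G16980, AT4G16410, AT1G44000, AT5G08050 and AT3G12345. By edgeR with Benjamini-Hochberg adjustment, 130 genes were called lower in CNA (3.96% of all genes tested), 86 in CNA-SDdelta (2.09%), 124 in CNA-SmHOX32 (5.38%), 123 in CNA-PpHOX32 (3.92%), 101 in CNA-KnC3HDZ_8m (3.51%), 95 in CNA-KnC3HDZ (2.11%), 116 in PHB (4.99%) and 100 in PHB-SDdelta (3.44%). All 8 calls were made for 59 genes, against 0.439% of all genes tested. For 20 genes 7 calls were made and for 12 genes at most 1, both without a share over all genes computed. Since the rule used these contrasts, nothing is read from these counts.

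Of the thylakoid, 17 genes act in electron transport, ATP synthesis or the assembly and upkeep of the complexes, and their averaged changes had a median of −1.32. FED A, a leaf ferredoxin that passes electrons from photosystem I to NADP+, lay between 1681 and 3233 CPM in the mock libraries, with a median of 2383, and between 961 and 1678 CPM in the induced ones, with a median of 1164. No induced library reached the lowest mock library, although the change was one of the smallest of the set: it averaged −0.96, nearest 0 in CNA-KnC3HDZ (−0.72) and lowest in CNA-SmHOX32 (−1.20). FD1, another ferredoxin, lay between 40.9 and 246 CPM in the mock libraries, with a median of 107, and between 0.553 and 73.1 CPM in the induced ones, with a median of 35.3. PETE1, a plastocyanin that carries electrons to photosystem I, ranged over 138 to 272 CPM in mock and 33.7 to 117 CPM in induced libraries. ATPD, the delta subunit of the chloroplast ATP synthase, ranged over 147 to 374 CPM in mock and 41.6 to 132 CPM in induced libraries. In both the induced libraries lay entirely below the mock libraries.

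AT4G01150, annotated as a CURVATURE THYLAKOID 1A-like protein, lay between 442 and 1332 CPM in the mock libraries, with a median of 635, and between 177 and 553 CPM in the induced ones, with a median of 290.2. AT3G47070, a thylakoid soluble phosphoprotein, lay between 280.0 and 754 CPM in the mock libraries, with a median of 541, and between 126 and 364 CPM in the induced ones, with a median of 228. CAO, which in this annotation is the chloroplast signal recognition particle component that delivers light-harvesting proteins to the membrane, ranged over 416 to 708 CPM in mock and 113 to 388 CPM in induced libraries. For these genes the averaged changes were −1.19, −1.19 and −1.32. PGR5-LIKE A, needed for cyclic electron flow around photosystem I, had medians of 134 CPM in mock and 48.9 CPM in induced libraries. The one-helix proteins OHP and OHP2, which help to assemble photosystem II, had averaged changes of −1.17 and −0.96. The other genes of this role were CaS, ENH1, AT3G44020, YCF37, TLP18.3, LIL3:1 and LQY1, with averaged changes between −1.82 and −1.07.

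Of carbon fixation, 13 genes belonged to the set, and their averaged changes had a median of −1.72. Carbonic anhydrase, which interconverts CO2 and bicarbonate, was represented by both CA2 and CA1. CA2 lay between 916.4 and 3348 CPM in the mock libraries, with a median of 1699, and between 104 and 963 CPM in the induced ones, with a median of 314. Its change averaged −2.48, nearest 0 in CNA-SDdelta (−1.82) and lowest in CNA-PpHOX32 (−3.33), and in every line the 3 induced libraries lay below the 3 mock libraries. CA1 lay between 42.8 and 347 CPM in the mock libraries, with a median of 179, and between 0 and 115 CPM in the induced ones, with a median of 22.9. CA1 overlaps another gene on the same strand, so its reads could be split or shared.

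Rubisco activase, RCA, which removes inhibitory sugar phosphates from Rubisco, lay between 604 and 2227 CPM in the mock libraries, with a median of 1458, and between 150.0 and 1000.0 CPM in the induced ones, with a median of 413. Across lines the treatments overlapped, because the lowest mock libraries, in PHB, lay below the highest induced library, in CNA-SDdelta, but within each line they did not. RBCS3B, a gene for the small subunit of Rubisco, lay between 358 and 1431 CPM in the mock libraries, with a median of 645, and between 52.5 and 552 CPM in the induced ones, with a median of 149. Its sequence is close to that of the other small subunit genes, so reads between these copies could be divided differently by another counting, and its level is uncertain to that extent. Of the Calvin cycle enzymes, SBPASE (sedoheptulose-bisphosphatase) had medians of 73.5 CPM in mock and 12.7 CPM in induced libraries, and FBA1 (plastid aldolase) had medians of 631 CPM in mock and 141 CPM in induced libraries. The averaged changes were −2.27 and −2.03. The subunits GAPA-2 and GAPB of the plastid glyceraldehyde-3-phosphate dehydrogenase had averaged changes of −1.72 and −1.84 (reads of GAPA-2 could be shared with its close copy GAPA), and PRK (phosphoribulokinase) one of −1.61. CP12-2, a small protein that links PRK to the dehydrogenase, had medians of 145 CPM in mock and 44.5 CPM in induced libraries. APE2, the exporter of triose phosphates from the chloroplast, and TRXF1, the thioredoxin that activates the cycle in light, had averaged changes of −1.27 and −1.09. RPI2, a ribose-5-phosphate isomerase with an averaged change of −1.40, completed the group. Whether its product acts in the chloroplast was not tested.

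A list of 19 genes for Rubisco and the Calvin cycle, drawn up with earlier results of these data known, held 8 of the set. In all 8 lines 16 of the 19 stood below 0, and 12 to 18 were called lower per line. Members of the set, 8 in this list, stood below 0 by the rule. For this list and the lists below, no share over all genes was computed for genes below or above 0 in all 8 lines. Nor was one computed for calls of a higher level, so nothing is read from these counts. RBCS1A, another small subunit gene, was no member because its change was −0.64 in CNA-SDdelta; it ran over −1.74 to −0.64 in the 8 lines. TIM, a plastid triose-phosphate isomerase, had changes of −0.56 to 0.16 and was called in no line.

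Photorespiration gave 8 genes, with a median averaged change of −1.38. HPR, the peroxisomal hydroxypyruvate reductase, lay between 467 and 1421 CPM in the mock libraries, with a median of 928.7, and between 212 and 679 CPM in the induced ones, with a median of 343. GOX1, glycolate oxidase, lay between 338 and 1035 CPM in the mock libraries, with a median of 649, and between 141 and 561 CPM in the induced ones, with a median of 219. PMDH2, a peroxisomal malate dehydrogenase that supplies NADH to HPR, lay between 216 and 1265 CPM in the mock libraries, with a median of 689, and between 133 and 576 CPM in the induced ones, with a median of 322. Their averaged changes were −1.35, −1.51 and −1.13, and in HPR and GOX1 the treatments did not overlap within any line. In the mitochondrial glycine steps, SHM1 (serine transhydroxymethyltransferase), the P protein GLDP1, the H protein GDCH and the T-protein gene AT1G11860 had averaged changes of −1.99, −1.53, −1.22 and −1.34. AT1G32470, a further H-protein gene, had one of −1.41.

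Chlorophyll synthesis gave 5 genes. GUN4, which activates magnesium chelatase, lay between 164 and 357 CPM in the mock libraries, with a median of 255, and between 9.95 and 150.0 CPM in the induced ones, with a median of 54.8. All induced libraries lay below all mock libraries, and the change averaged −2.19, nearest 0 in CNA-SDdelta (−1.38) and lowest in PHB (−3.11). GUN5 and CHLI1, subunits of magnesium chelatase, had averaged changes of −1.43 and −1.18. HEMA1, the glutamyl-tRNA reductase that opens the pathway, had medians of 181 CPM in mock and 80.4 CPM in induced libraries. CRD1, of the cyclase that closes the isocyclic ring, lay between 618 and 1106 CPM in the mock libraries, with a median of 782, and between 291 and 593 CPM in the induced ones, with a median of 379; its change nearest 0 was −0.708 in CNA-KnC3HDZ, just inside the threshold. Of a list of 23 genes of this pathway, 11 stood below 0 in all 8 lines and 6 to 11 were called lower per line. HEMB1 stood above 0 in all 8 lines, with changes of 0.02 to 0.68, and was called in none. PORB was called higher in CNA-KnC3HDZ (1.14) and CNA-SmHOX32 (1.12) and lower in PHB (−1.34) and PHB-SDdelta (−1.04).

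The chloroplast NDH complex, which returns electrons from photosystem I to the plastoquinone pool, gave 6 genes. NdhU lay between 11.96 and 91.2 CPM in the mock libraries, with a median of 38.3, and between 0 and 21.4 CPM in the induced ones, with a median of 4.02. Its change averaged −2.82, nearest 0 in CNA-SDdelta (−1.49) and lowest in CNA-SmHOX32 (−3.96). NdhO lay between 21.8 and 168 CPM in the mock libraries, with a median of 93.1, and between 3.15 and 64.0 CPM in the induced ones, with a median of 34.3. The other genes were NdhL, PnsB1, PnsB5 and CRR1, the last needed for the accumulation of the complex, with averaged changes of −1.37, −1.76, −1.41 and −1.48. PnsB1, PnsB5 and CRR1 were thinly counted, at medians of 16.6, 12.4 and 18.7 CPM in mock, and their treatments overlapped in 3 or more lines. Of a list of 17 nuclear genes for subunits of the complex, 12 stood below 0 in all 8 lines and 2 to 9 were called lower per line. PnsB2 was called in no line, with changes of −1.01 to 0.71.

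Of plastid gene expression, 5 genes belonged to the set. SIGA, a sigma factor of the plastid RNA polymerase, lay between 52.3 and 153 CPM in the mock libraries, with a median of 94.6, and between 3.32 and 46.6 CPM in the induced ones, with a median of 28.1. CRB, a chloroplast RNA binding protein, lay between 29.7 and 76.3 CPM in the mock libraries, with a median of 63.4, and between 3.595 and 27.9 CPM in the induced ones, with a median of 13.05. Neither gene's treatments overlapped across the 48 libraries. PTAC16, found in the plastid's transcriptionally active chromosome, HCF107, which binds plastid RNA, and the RNA-binding protein gene AT1G60000 had averaged changes of −2.23, −1.73 and −1.34. Of 6 sigma factor genes, SIGA alone was a member; SIG4 stood above 0 in all 8 lines, with changes of 0.03 to 0.92 and no call.

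The regulators of light and clock responses were 10 genes with a median averaged change of −1.79. COL2, a CONSTANS-like B-box protein, lay between 60.4 and 271 CPM in the mock libraries, with a median of 160.2, and between 10.2 and 59.6 CPM in the induced ones, with a median of 23.1. Its change averaged −2.56, nearest 0 in CNA-SDdelta (−1.57) and lowest in CNA-SmHOX32 (−3.35). BBX14, another B-box protein, lay between 46.0 and 148 CPM in the mock libraries, with a median of 66.2, and between 1.60 and 48.5 CPM in the induced ones, with a median of 15.8. BBX16 was thinly counted and lay between 2.39 and 60.3 CPM in the mock libraries, with a median of 16.9, and between 0 and 7.32 CPM in the induced ones, with a median of 0.787. It had no count in any of the 3 induced libraries of PHB or of CNA-SmHOX32, where a count of 0 allows up to 3 counts, between 0.369 and 1.66 CPM in these 6 libraries. Of a list of 20 B-box genes, 9 stood below 0 in all 8 lines and 4 to 9 were called lower per line. COL4 and COL5 were called lower in none, with changes of −0.25 to 0.54 and −0.36 to 0.53. Calls of a higher level were those of COL4 in CNA-KnC3HDZ_8m (0.54) and COL9 in PHB (1.36) and PHB-SDdelta (1.32). In CNA-SmHOX32, BBX8 (3.36), BZS1 (2.44) and LZF1 (2.04) were called higher.

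RVE1, a MYB-like factor that links the clock to growth, lay between 76.8 and 431 CPM in the mock libraries, with a median of 271, and between 18.1 and 173 CPM in the induced ones, with a median of 86.5. It was 1 of 27 clock genes to belong to the set. Of the 27, 8 stood below 0 and 3 above 0 in all 8 lines. Per line 3 to 7 were called lower and 0 to 2 higher, among the latter TOC1 and ELF4. PHOT2, a blue light receptor, and JAC1, which acts in the light-driven movement of chloroplasts, had averaged changes of −1.26 and −1.62. CGA1, a GATA factor that promotes chloroplast development, had medians of 32.6 CPM in mock and 6.52 CPM in induced libraries; GNC, its closest relative, and GLK2, a GOLDEN2-LIKE factor of chloroplast development, had changes of −1.18 to −0.25 and −1.58 to −0.42 and were no members. BEE2 and UNE10, both basic helix-loop-helix factors, and NF-YB3, a subunit of a CCAAT-binding factor, had averaged changes of −1.96, −1.47 and −1.40.

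TAS3, the single non-coding RNA of the set, is the precursor of small RNAs that silence AUXIN RESPONSE FACTOR genes of the lower leaf side. It lay between 69.7 and 304 CPM in the mock libraries, with a median of 119.7, and between 5.53 and 60.5 CPM in the induced ones, with a median of 23.7. Its change averaged −2.45, nearest 0 in CNA-SDdelta (−1.54) and lowest in CNA-KnC3HDZ_8m (−3.20), and no induced library reached the lowest mock library. Neither the 5 HD-ZIPIII genes nor the 4 LITTLE ZIPPER genes had a member of the set; ZPR1, a LITTLE ZIPPER gene whose product binds HD-ZIPIII proteins, had changes of 0.20 to 5.46 and was called higher in 7 lines.

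Growth and the cell wall gave 6 genes, with a median averaged change of −2.03. EXPA8, an expansin that loosens walls, lay between 6.93 and 137 CPM in the mock libraries, with a median of 58.6, and between 0 and 22.3 CPM in the induced ones, with a median of 3.49. AT4G16980, of an arabinogalactan-protein family, lay between 384 and 1339 CPM in the mock libraries, with a median of 807, and between 81.1 and 372 CPM in the induced ones, with a median of 197. All induced libraries of AT4G16980 lay below all mock libraries, and the change averaged −1.95, nearest 0 in CNA-KnC3HDZ (−0.98) and lowest in CNA-KnC3HDZ_8m (−3.09). RGF9, a precursor of a root meristem growth factor peptide, had medians of 31.0 CPM in mock and 5.49 CPM in induced libraries. AT4G38840, of the SAUR family of auxin-responsive genes, had medians of 87.1 CPM in mock and 23.8 CPM in induced libraries. The extensin-type genes AT3G16660 and AT5G13140 had averaged changes of −2.13 and −1.69.

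**Figure D3:**
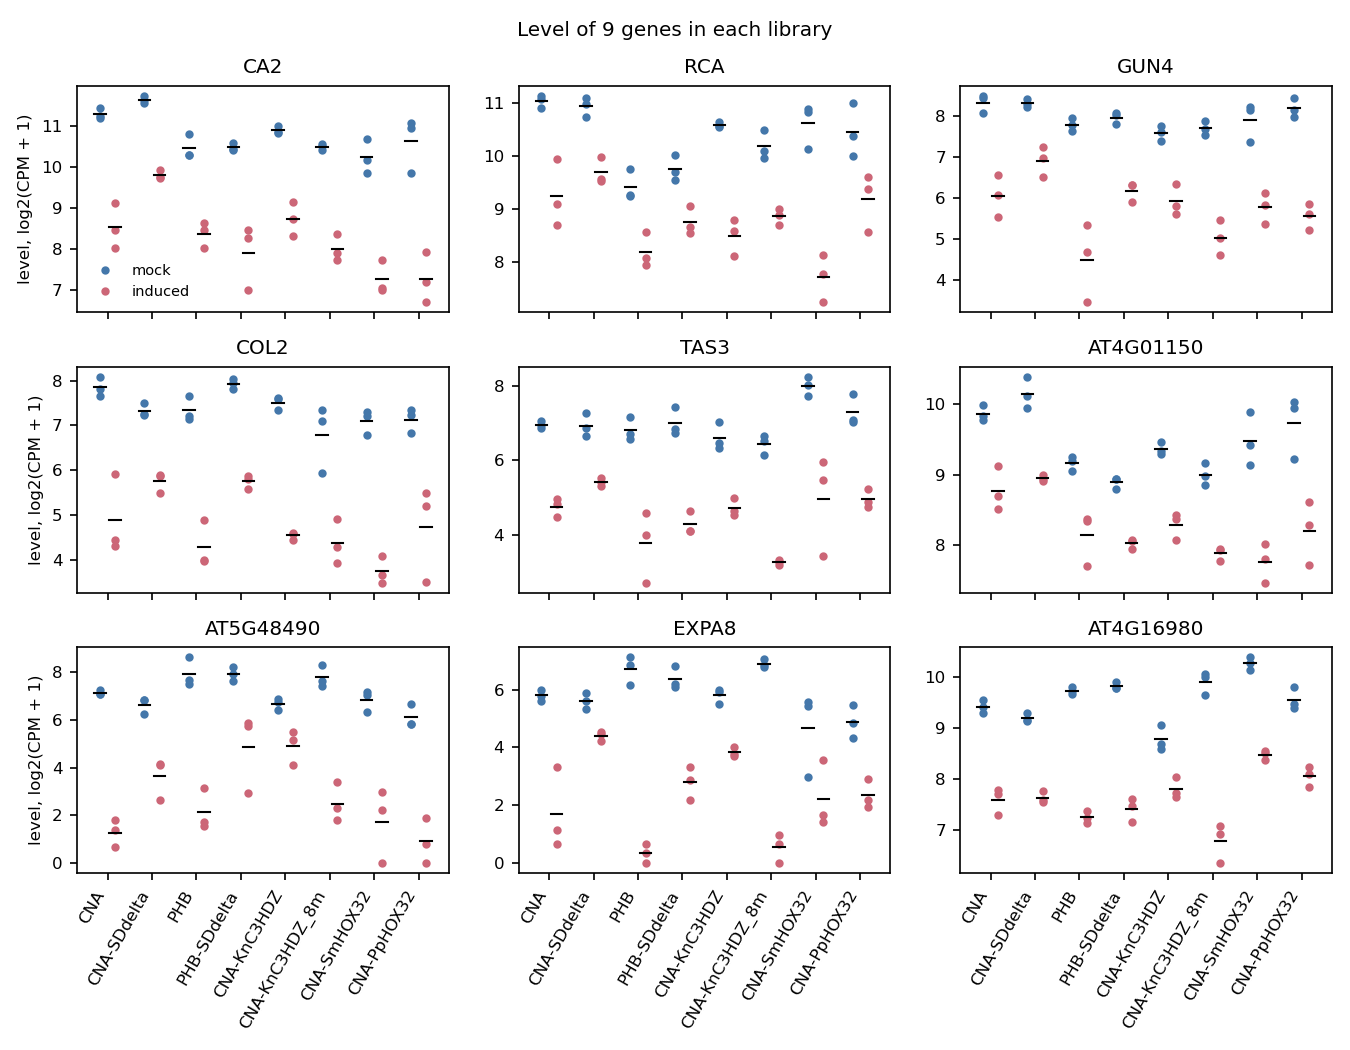
Level of 9 of the 152 genes in each library, as log2 of CPM plus 1 (vertical axis, a scale of its own for each gene), for the 8 lines (horizontal axis). Points are single libraries and bars the mean of 3; induced points lie below mock points within every line except in EXPA8, where 1 mock library of CNA-SmHOX32 (6.93 CPM) lies below 1 induced library (10.8 CPM).

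A further 32 genes outside these roles were annotated to the chloroplast, with a median averaged change of −1.49, and 49 genes to no role above, with a median of −1.72. THI1, which makes the thiazole part of vitamin B1, was the most abundant gene of the set and lay between 2651 and 7087 CPM in the mock libraries, with a median of 4057, and between 1103 and 3199 CPM in the induced ones, with a median of 1986. ACP4, an acyl carrier protein of fatty acid synthesis, lay between 549 and 1018 CPM in the mock libraries, with a median of 744, and between 167 and 414 CPM in the induced ones, with a median of 273. VTC2, which commits sugars to ascorbate, lay between 280.2 and 807 CPM in the mock libraries, with a median of 428, and between 116 and 459 CPM in the induced ones, with a median of 199.6. The averaged changes were −1.13, −1.50 and −1.13. AT5G48490, of the lipid-transfer and seed storage protein type, had the lowest averaged change of the set and lay between 55.9 and 392 CPM in the mock libraries, with a median of 135, and between 0 and 57.9 CPM in the induced ones, with a median of 4.56. Its change averaged −4.20, nearest 0 in CNA-KnC3HDZ (−1.67) and lowest in CNA (−5.80). AT2G15020, annotated as uncharacterized, lay between 9.20 and 155 CPM in the mock libraries, with a median of 69.8, and between 0 and 21.9 CPM in the induced ones, with a median of 2.06, with no count in the 3 induced libraries of PHB. The next lowest averaged changes outside the roles above were those of the uncharacterized AT1G68238 (−2.74), the SSUH2-like gene AT1G22630 (−2.70), the iron-sulphur protein gene NEET (−2.64) and AT2G29290, of an NAD(P)-binding family (−2.58). AT2G29290 overlaps another gene on the same strand, and AT2G29360 is of the same family, so reads could be shared. For genes at or near 0 after induction the added 1 CPM limits how low the change can be.

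Of lipids and cofactors, FADA, the desaturase that makes the trans fatty acid of chloroplast phosphatidylglycerol, lay between 8.21 and 51.5 CPM in the mock libraries, with a median of 27.8, and between 0 and 10.8 CPM in the induced ones, with a median of 3.62. Its change averaged −2.44, nearest 0 in PHB-SDdelta (−1.43) and lowest in CNA-KnC3HDZ (−4.12). PDX1L4, a PDX1-like gene of the family that makes vitamin B6, had medians of 65.7 CPM in mock and 14.3 CPM in induced libraries. Of transport and nitrogen, PHT2;1, a phosphate transporter of the chloroplast envelope, had medians of 139.7 CPM in mock and 53.3 CPM in induced libraries, ARGAH2, an arginase, had medians of 54.9 CPM in mock and 12.2 CPM in induced libraries, and ASN2, an asparagine synthetase, had medians of 52.8 CPM in mock and 14.4 CPM in induced libraries. The averaged changes of these 4 genes were −2.06, −1.31, −2.01 and −1.82. Of redox and respiration, CDSP32, a thioredoxin-type protein of the chloroplast, and NDA1, an alternative NAD(P)H dehydrogenase, had averaged changes of −1.40 and −1.59, with no overlap of the treatments within any line. CIPK20, a kinase regulated by calcium sensors, lay between 4.60 and 118 CPM in the mock libraries, with a median of 47.9, and between 0.983 and 27.4 CPM in the induced ones, with a median of 6.52. AT1G44000, a STAY-GREEN-like gene of the family that acts in chlorophyll breakdown, lay between 49.7 and 153 CPM in the mock libraries, with a median of 87.1, and between 10.2 and 40.5 CPM in the induced ones, with a median of 25.4, and no induced library reached the lowest mock library.

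The smallest averaged changes of the set were those of AT3G26070 (−0.92), a fibrillin-type gene, AT3G12345 (−0.94), of the FKBP type, FED A (−0.96), OHP2 (−0.96), AMK2 (−0.96), an adenylate kinase, and AT4G32590 (−0.99), of the ferredoxin type. AT3G12345 nevertheless had no overlap across the 48 libraries, with 356 to 683 CPM in mock and 180.4 to 349 CPM in induced libraries. The treatments overlapped in 4 or more lines for thinly counted genes such as AT3G59780, AT1G61300, AT3G19800 and AT4G15430, with mock medians of 14.4, 8.84, 14.8 and 18.9 CPM. These genes were named with their values seen.

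The genes left out by name went the same way where they met the thresholds. NdhM had an averaged change of −3.84, AT2G21210 of −3.34, RBCS1B of −3.01 and CT-BMY, a plastid β-amylase, of −2.77. LHY and CCA1, also left out by name, did not meet the threshold, with −0.7 or lower in 5 and 6 lines. The 16 photosystem and antenna genes left out, found by a current or an older symbol, had averaged changes of −2.86 (LHCB2.3) to −0.91 (PSI-P). At the threshold, the change nearest 0 of CRD1, AT3G44020 and AT1G52870 was −0.708, −0.706 and −0.704, just inside, and that of GASA6, POR C and MOT1 was −0.69995, −0.6996 and −0.698, just outside.

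The thresholds of the rule used counts alone, but its exclusions went by gene name, so the annotation was not independent of it. The genes left out are absent from the 152 but stay among the tested genes given for comparison. In the RefSeq annotation a note on the chloroplast, plastid or thylakoid stood at 71 of the 152 genes (46.7%), against 16.1% of the tested genes at or above 10 CPM in mock and 12.7% of all genes tested. Another place was named for 31 and none for 37. The longest transcript had a median of 1360 bases and 4 exons, against 1666 bases and 5 exons for genes at or above 10 CPM. The genes lay on all 5 chromosomes, with 42 on chromosome 1, 26 on 2, 27 on 3, 25 on 4 and 32 on 5. The annotation placed another gene over 46 of them on the opposite strand and over 11 on the same strand. Whether counting used the strand is not given in the sources used here, so the levels of these genes, among them RCA, PRK, GUN4, CRD1, COL2, RVE1, GOX1, CRB and AT4G16980, are uncertain to that extent.

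The 250 bases before the annotated start were searched on both strands for 14 short motifs, listed by their letters, and a match is a description of these letters only. SORLIP1, GCCAC, a motif over-represented in light-induced promoters, was held by 34 of 152 windows (22.4%), against 16.7% for genes at or above 10 CPM and 16.05% of all genes tested, the widest gap above all genes among the motifs. The HUD element, CACATG, was in 14.5% against 11.01% of all tested, the TCP site, GGNCCC, in 10.5% against 8.23%, the CCA1 binding site, AAAAATCT, in 7.89% against 6.74%, and the G-box, CACGTG, in 8.55% against 7.59%. The I-box, GATAAG, was in 11.8% against 12.5%. A GCC box, GCCGCC, was in 0.658% against 1.99%, a telo box, AAACCCTA, in 1.32% against 3.48%, the evening element, AAATATCT, in 2.63% against 4.95%, and CRT/DRE, CCGAC, in 9.87% against 13.1%. TATA boxes, TATAAA, were in 42.1% against 46.3%, and W-boxes, TTGACC, in 6.58% against 12.4%. The HD-ZIPIII site, GTAAT then any base then ATTAC, was in none of the 152 windows and in 0.0529% of all tested, and its core, TAATNATTA, in 3 windows (1.97%) against 3.88%. The HD-ZIPIII site contains its core; the other letters were counted as they stand, overlaps included.

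**Figure D4:**
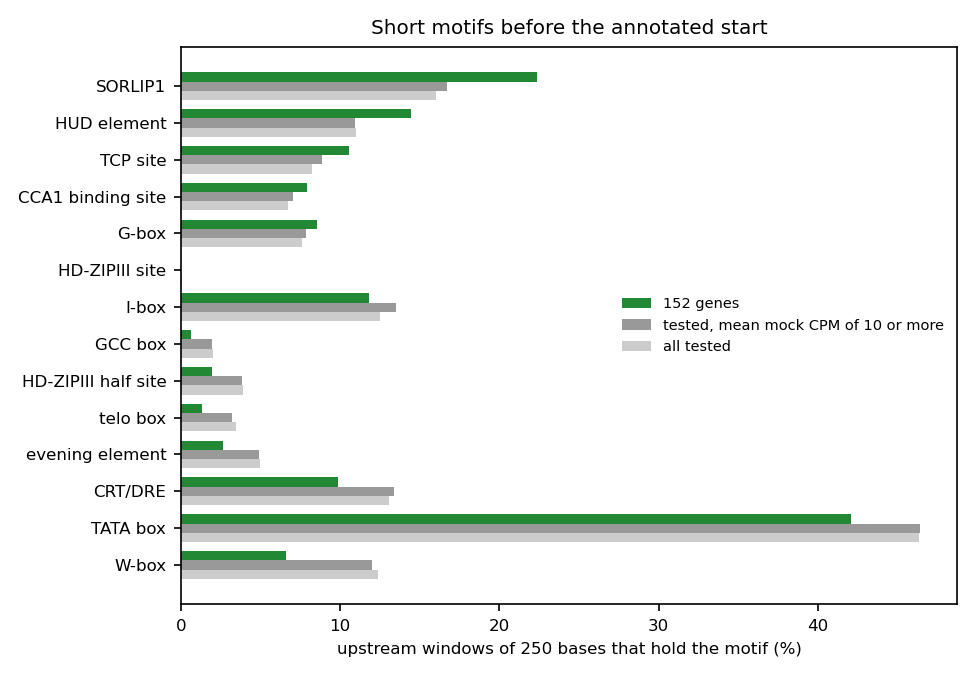
Share of upstream windows of 250 bases that hold each motif on either strand (horizontal axis, %), for the 152 genes, the tested genes at or above 10 CPM in mock and all genes tested. Motifs are ordered by the gap between the 152 genes and all tested, from SORLIP1 (22.4% against 16.05%) to the W-box (6.58% against 12.4%).

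No annotated gene lies over 22 of the 34 windows with SORLIP1. The windows of 5 of the 6 most abundant of those are shown because they hold the motif with the widest gap: RVE1 (chr5:5692993-5693242, minus strand), OHP (chr5:418841-419090, plus strand), AT5G48490 (chr5:19648363-19648612, minus strand), NdhO (chr1:28131078-28131327, minus strand) and AT1G44000 (chr1:16709714-16709963, minus strand). They were read from the RefSeq sequence of TAIR10.1 and are written 5′ to 3′ on the strand of the gene, ending at the base before the annotated start. Capitals mark GCCAC or its reverse complement.
RVE1: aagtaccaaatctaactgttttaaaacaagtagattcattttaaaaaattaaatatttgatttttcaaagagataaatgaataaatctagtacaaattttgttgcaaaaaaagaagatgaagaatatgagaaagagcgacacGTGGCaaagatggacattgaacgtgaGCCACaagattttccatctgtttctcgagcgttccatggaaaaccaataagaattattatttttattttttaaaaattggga
OHP: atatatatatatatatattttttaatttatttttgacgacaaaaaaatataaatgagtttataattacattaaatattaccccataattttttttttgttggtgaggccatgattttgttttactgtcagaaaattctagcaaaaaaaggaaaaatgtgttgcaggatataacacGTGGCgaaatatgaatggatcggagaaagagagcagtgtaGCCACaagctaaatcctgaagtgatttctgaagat
AT5G48490: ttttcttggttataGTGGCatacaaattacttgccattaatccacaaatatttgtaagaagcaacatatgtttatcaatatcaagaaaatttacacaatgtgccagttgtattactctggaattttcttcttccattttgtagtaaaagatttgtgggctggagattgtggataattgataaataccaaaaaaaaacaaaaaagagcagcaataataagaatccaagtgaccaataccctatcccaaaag
NdhO: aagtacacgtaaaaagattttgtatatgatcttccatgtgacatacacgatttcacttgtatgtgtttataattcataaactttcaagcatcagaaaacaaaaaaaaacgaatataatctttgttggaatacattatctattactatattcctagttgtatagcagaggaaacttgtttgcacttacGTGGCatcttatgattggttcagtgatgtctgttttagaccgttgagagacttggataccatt
AT1G44000: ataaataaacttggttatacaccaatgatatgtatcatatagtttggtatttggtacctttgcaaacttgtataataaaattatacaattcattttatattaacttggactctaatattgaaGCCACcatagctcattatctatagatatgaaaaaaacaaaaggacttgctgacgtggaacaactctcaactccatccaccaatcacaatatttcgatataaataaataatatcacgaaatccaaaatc

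The match nearest the start lay 35 bases before it in OHP, where the other began 75 bases before the start. In NdhO it lay at 63 bases and in AT1G44000 at 128. RVE1 held 2 matches, at 108 and 82 bases, and AT5G48490 held 1, at 236. The averaged changes of these genes were −1.17 (OHP), −1.58 (NdhO), −1.82 (AT1G44000), −1.43 (RVE1) and −4.20 (AT5G48490).

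Whether lines differed before induction was tested on the mock libraries, a comparison between lines that the rule did not make, although the same mock values entered its changes. The mock level differed among the 8 lines in 81 of the 152 genes (53.3%) by a joint edgeR quasi-likelihood F test with Benjamini-Hochberg adjustment, against 17.9% of all genes tested and 31.0% of those at or above 10 CPM. By role this was so for 12 of 17 thylakoid genes, 11 of 13 of carbon fixation, 6 of 8 of photorespiration, 2 of 5 of chlorophyll synthesis, 3 of 6 of the NDH complex, 1 of 5 of plastid gene expression, 4 of 10 regulators and 4 of 6 genes of growth and the wall, and for TAS3. Of the 81, 31 were highest in CNA-SDdelta, 20 in CNA and 17 in CNA-SmHOX32, and 26 were lowest in CNA-KnC3HDZ_8m, 24 in PHB and 21 in CNA-SmHOX32. Over all 152 genes, the median deviation of a line from the mean of the 8 was 0.38 on the log2 scale in CNA and 0.34 in CNA-SDdelta, and −0.29 in PHB and −0.25 in CNA-KnC3HDZ_8m. The labels name no batch, so differences between lines and between growth or library batches cannot be told apart. The genes at or above 10 CPM were not matched to the set for level or spread. The part of unequal power of the test in the gap to 31.0% was not tested.

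MLP34, a gene of the major latex protein family, differed most by its p-value (adjusted p = 4.16e-14, edgeR). Its mock level was highest in PHB-SDdelta, 569 ± 142 CPM (SD, n = 3), and PHB, 480.3 ± 109.6 CPM, then 296 ± 32.5 CPM in CNA-KnC3HDZ and 130.2 ± 38.9 CPM in CNA-SDdelta. It was 92.3 ± 32.6 CPM in CNA-KnC3HDZ_8m, 75.8 ± 5.02 CPM in CNA-PpHOX32, 68.0 ± 6.34 CPM in CNA and 35.7 ± 17.1 CPM in CNA-SmHOX32. Both PHB lines stood at the top, whereas over the whole set PHB had the lowest median. MLP34 belongs to a family with close copies, between which reads could be divided differently. VTC2 (adjusted p = 7.97e-12, edgeR) was highest in CNA-SmHOX32, 745 ± 53.6 CPM, and CNA-PpHOX32, 709.6 ± 72.3 CPM, and lowest in CNA-KnC3HDZ, 306 ± 34.0 CPM. The uncharacterized AT5G38980 (adjusted p = 8.52e-11, edgeR) ran from 85.6 ± 12.1 CPM in CNA-KnC3HDZ_8m to 383 ± 70.0 CPM in CNA-SmHOX32. In these the spread between libraries of a line was smaller than the gap between the extreme lines.

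AT4G16980 was highest in CNA-SmHOX32, 1237 ± 108 CPM, and lowest in CNA-KnC3HDZ, 444 ± 78.6 CPM (adjusted p = 1.49e-08, edgeR). AT4G01150 ran from 473 ± 26.7 CPM in PHB-SDdelta to 1138 ± 179 CPM in CNA-SDdelta (adjusted p = 2.22e-08, edgeR). RCA ran from 691 ± 148 CPM in PHB and 863 ± 147 CPM in PHB-SDdelta to 2100.2 ± 163 CPM in CNA (adjusted p = 3.62e-08, edgeR). Both PHB lines thus had the lowest mock level of RCA, and CNA and CNA-SDdelta the highest.

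**Figure D5:**
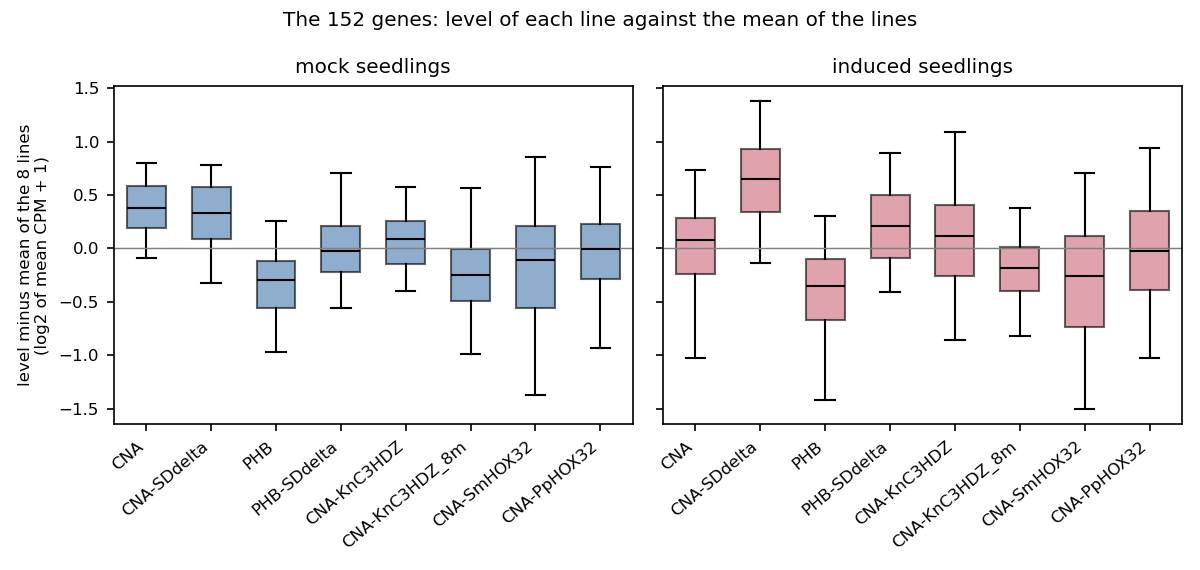
Level of each line against the mean of the 8 lines, over the 152 genes, in mock (left) and induced (right) libraries, on the log2 scale of mean CPM plus 1 (vertical axis). Boxes hold the genes between the lower and the upper quartile, the line is the median and whiskers span percentiles 5 to 95; CNA-SDdelta has the highest median after induction, 0.65, and PHB the lowest, −0.35.

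After induction the median deviation was 0.65 in CNA-SDdelta and 0.21 in PHB-SDdelta, 0.08 in CNA, −0.26 in CNA-SmHOX32 and −0.35 in PHB. The spread of a gene over the 8 lines (SD of the log2 level) had a median of 0.443 in mock and 0.569 in induced libraries and was larger after induction in 106 of the 152 genes.

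Whether the change itself differed among the lines was tested with the interaction of line and treatment. The rule held each change at −0.7 or lower but did not set how far below it each line lay. The change differed among the 8 lines in 24 of the 152 genes, 15.8%, against 8.92% of all genes tested and 15.8% of those at or above 10 CPM, the same share. In 19 of the 24 the mock level differed too, and 66 genes showed neither difference at this threshold. By role it was 5 of 13 genes of carbon fixation (RBCS3B, RCA, GAPB, PRK and CA2), 4 of 6 of growth and the wall, 2 of 10 regulators (BBX14 and BBX16), 2 of 17 of the thylakoid (CAO and AT3G44020), and 1 each of photorespiration (HPR) and chlorophyll synthesis (GUN4). No share of comparable genes was computed by role, so nothing is read from these counts.

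The smallest p-values were those of EXPA8 (adjusted p = 3.42e-08, edgeR), AT4G16980 (9.82e-08), RBCS3B (5.53e-07), AT5G48490 (6.12e-07), AT2G15020 (1.61e-05) and RCA (0.000533). EXPA8 had changes of −6.40 in PHB, −6.30 in CNA-KnC3HDZ_8m, −3.62 in CNA and −3.53 in PHB-SDdelta, then −2.55, −2.47, −1.99 and −1.21 in CNA-PpHOX32, CNA-SmHOX32, CNA-KnC3HDZ and CNA-SDdelta. AT5G48490 had changes of −5.80 in CNA, −5.71 in PHB, −5.18 in CNA-KnC3HDZ_8m, −5.06 in CNA-PpHOX32 while CNA-SmHOX32 had −4.72, against −2.88 in CNA-SDdelta, −2.61 in PHB-SDdelta and −1.67 in CNA-KnC3HDZ. In both genes PHB lay lower than PHB-SDdelta and CNA lower than CNA-SDdelta and CNA-KnC3HDZ. RCA had −2.89 in CNA-SmHOX32, lower than in any other line, and −0.99 in PHB-SDdelta.

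Of 7 pairs of lines compared, CNA-KnC3HDZ_8m and CNA-KnC3HDZ differed in the change of 6 of the 152 genes. This was about the same share as among all genes tested (3.93%), so nothing is read from the number of calls. AT4G16980 was at 384, 414 and 533 CPM in mock and 211, 264 and 199 CPM in induced libraries of CNA-KnC3HDZ. In CNA-KnC3HDZ_8m it was at 1030.2, 1072 and 798 CPM in mock and 81.1, 121 and 135 CPM in induced libraries. All mock libraries of CNA-KnC3HDZ_8m were thus higher, and all its induced libraries lower, than those of CNA-KnC3HDZ, and the change was lower by a difference of −2.17 ± 0.27 (SE; adjusted p = 1.35e-08, edgeR). RBCS3B was at 545, 569 and 637 CPM in mock and 209.7, 552 and 207 CPM in induced libraries of CNA-KnC3HDZ. It was at 1247, 1431 and 1167 CPM in mock and 133, 75.7 and 139 CPM in induced libraries of CNA-KnC3HDZ_8m. The groups stood in the same order as those of AT4G16980, with a difference in change of −2.68 ± 0.42 (adjusted p = 4.5e-06, edgeR).

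EXPA8 and AT5G48490 were lower after induction of CNA-KnC3HDZ_8m, at 0.578, 0.979 and 0 CPM and 9.44, 3.91 and 2.49 CPM, than of CNA-KnC3HDZ, at 12.6, 12.1 and 15.0 CPM and 16.4, 43.9 and 34.2 CPM (adjusted p for the change = 8.26e-06 and 0.000392, edgeR). cPT4, of the polyprenyl synthase family, had changes of −0.98 and −3.72 in that order (adjusted p = 0.0402, edgeR), a call lost in 9 of the 12 fits without a single library. The calls of AT4G16980, RBCS3B, EXPA8 and AT5G48490 held in all 12.

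Between CNA-SmHOX32 and CNA, 4 of the 152 genes differed, about the same share as among all genes tested (2.74%). Each had the lower change in CNA-SmHOX32. RCA was at 2157, 2227 and 1916 CPM in mock and 540.1, 978 and 412 CPM in induced libraries of CNA. It was at 1115, 1822 and 1879 CPM in mock and 277, 218 and 150.0 CPM in induced libraries of CNA-SmHOX32, a difference of −1.31 ± 0.34 (adjusted p = 0.0214, edgeR). The induced libraries of CNA-SmHOX32 all lay below those of CNA. CRB, after induction at 3.69, 4.16 and 8.85 CPM in CNA-SmHOX32 and 22.4, 21.7 and 24.5 CPM in CNA, differed in change by −2.01 ± 0.54 (adjusted p = 0.0255, edgeR). BBX16 (adjusted p = 0.00797, edgeR) had no count in the induced libraries of CNA-SmHOX32 and was at 0.145, 0.356 and 2.96 CPM in those of CNA. AT1G65230 (adjusted p = 0.0329, edgeR) was at 0, 0.166 and 0 CPM in the first and 3.92, 12.4 and 5.33 CPM in the second, with 1 mock library of CNA-SmHOX32 also at 0. Among 12 fits that each left out 1 library, RCA and CRB lost the call in 4 each, BBX16 in 1 (without CNA induced 3, adjusted p = 0.197) and AT1G65230 in 7.

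Between CNA-KnC3HDZ and CNA, AT5G48490 differed (1.53% of all genes tested passed in this pair). AT5G48490 was at 0.581, 2.49 and 1.58 CPM after induction in CNA and 16.4, 43.9 and 34.2 CPM in CNA-KnC3HDZ, from 153, 135 and 134 CPM and 107, 83.3 and 116 CPM in mock (adjusted p = 0.000122, edgeR). Between PHB and CNA, EXPA8 alone of the 152 genes differed (adjusted p = 0.0208, edgeR), a smaller share than the 1.44% of all genes tested. Its induced libraries were at 0.268, 0.568 and 0 CPM in PHB and 0.581, 8.89 and 1.18 CPM in CNA. Between PHB-SDdelta and PHB, AT5G48490 and EXPA8 had changes nearer 0 in PHB-SDdelta (adjusted p = 0.0265 and 0.0374, edgeR). Of all genes tested 0.111% differed in this pair. The induced libraries of PHB-SDdelta were at 6.72, 57.9 and 52.7 CPM for AT5G48490 and 3.49, 6.33 and 9.07 CPM for EXPA8, those of PHB at 2.28, 1.89 and 7.74 CPM and 0.268, 0.568 and 0 CPM. Of 12 fits that each left out 1 library, AT5G48490 kept the difference between CNA-KnC3HDZ and CNA in all. EXPA8 lost that between PHB and CNA in 4, and AT5G48490 and EXPA8 lost that between PHB-SDdelta and PHB in 8 and 9.

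Between CNA-SDdelta and CNA no gene of the set passed the adjusted test by edgeR (0.106% of all genes tested) or by DESeq2, and 24 had an unadjusted edgeR p under 0.05 (15.8%, against 7.99% of all genes tested). The change was nearer 0 in CNA-SDdelta for 130 of the 152 genes, with a median difference of 0.55 on the log2 scale, against 0.08 over all genes tested. These genes were measured in the same libraries, so the 130 are not independent of each other. The transcript named by the construct rose by 0.99 ± 0.42 (SE) in CNA-SDdelta, not called, and by 1.89 ± 0.42 in CNA. Its part in the difference was not tested. Between CNA-PpHOX32 and CNA no gene passed by edgeR (0.783%) and 1 by DESeq2, and 11 had an unadjusted edgeR p under 0.05 (7.24%, against 11.9%). There 83 genes had the change nearer 0 in CNA-PpHOX32, with a median difference of 0.06 against 0.02. CNA-KnC3HDZ had the change nearer 0 than CNA in 106 genes, by a median of 0.33 against 0.10. These pairs share the CNA libraries, so they are not independent of each other. No share over all genes was computed for the counts of 130, 83 and 106 genes.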

How the data were processed

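Polyadenylated RNA from 48 whole-seedling samples was sequenced as QuantSeq 3′ tag libraries, so longer transcripts do not gain counts. The authors deposited raw counts for 28496 genes per library. Per the submitters' processing notes the tools were Trimmomatic, STAR, featureCounts and DESeq2 with the build TAIR10; the file headers name STAR, and the strand setting is not given in the sources used here. Counts were fitted with edgeR 4.0.16 (R 4.3.3): filterByExpr, TMM, a mean for each of 16 groups over all 48 libraries, quasi-likelihood F tests and Benjamini-Hochberg adjustment over 18909 genes at 0.05. DESeq2 1.42.0 was an alternative. CPM divides by library totals, and changes add 1 CPM to both means. Nothing in the labels says that replicates came from separate plantings, so p-values measure the spread between these samples. Replicate pairs differed by more than counting noise (chi-square per degree of freedom 9.67 to 52.9). Precision follows depth, from 1808765 to 37222617 counts; limits for a count of 0 (3 counts) cover counting error only. Gene names matched RefSeq TAIR10.1 for 28009 of 28496 genes. Motifs were searched in 250-base windows. Some pair differences and an upstream window are not reported here. The scripts were tested on simulated data.

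The genes and lists were chosen with earlier results of these data known. Genes named are members in the lists, the 12 most abundant, the 12 with the lowest averaged change, the 6 with the smallest p for mock level and for change, the genes at the threshold and those left out by rule; others describe their role and were named with values seen. Settings tried were other thresholds, scalings, filters, thinning to equal depth, a replicate block, fits on the compared libraries and leaving out single libraries. The edgeR fits without a single library kept the gene filter, scaling factors and a fixed trend of the spread from all 48 libraries.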

Additional observations from a re-analysis of the deposited data

Results flagged for a closer look

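The change on induction differed between 2 lines, by a test of the difference itself, in the combinations of a gene and a pair given here. In CNA-KnC3HDZ_8m against CNA-KnC3HDZ these were AT4G16980 (adjusted p = 1.35e-08, edgeR), with a change of −3.09 against −0.98, RBCS3B (4.5e-06), with −3.45 against −0.85, EXPA8 (8.26e-06), with −6.30 against −1.99, and AT5G48490 (0.000392), with −5.18 against −1.67. All 4 passed whichever of the 12 libraries of the pair was omitted, and under the other settings of the fit that were tried. In this pair, calls were about as frequent in the set as among all genes tested (3.93%). cPT4 (0.0402) was at 8.96, 9.49 and 5.07 CPM in mock and 3.85, 5.87 and 0.711 CPM in induced libraries of CNA-KnC3HDZ_8m, and at 41.7, 32.9 and 25.3 CPM and 3.73, 0.349 and 0.739 CPM in those of CNA-KnC3HDZ. Among 12 fits that left out 1 library it passed only when CNA-KnC3HDZ induced 1, CNA-KnC3HDZ mock 3 or CNA-KnC3HDZ_8m induced 3 was the one, with adjusted p between 0.0594 and 0.216 in the other 9; it also failed with libraries thinned to the smallest total (0.888) and DESeq2 (0.0547).

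In CNA-SmHOX32 against CNA the genes were BBX16 (adjusted p = 0.00797, edgeR), RCA (0.0214), CRB (0.0255) and AT1G65230 (0.0329). Calls were about as frequent in the set as among all genes tested (2.74%) here too. BBX16 had changes of −5.40 and −2.93. It did not pass when CNA induced 3 was left out (adjusted p = 0.197); it also failed with libraries thinned to the smallest total (0.0977) and a replicate block within lines (0.0791). RCA had changes of −2.89 and −1.71. It did not pass when CNA induced 2, CNA mock 3, CNA-SmHOX32 induced 3 or CNA-SmHOX32 mock 2 was left out (adjusted p between 0.0535 and 0.187); it also failed with only the compared libraries fitted (0.102). CRB had changes of −3.26 and −1.55. It did not pass when CNA mock 1, CNA mock 3, CNA-SmHOX32 induced 1 or CNA-SmHOX32 induced 2 was left out (adjusted p between 0.0558 and 0.0743); it also failed with libraries thinned to the smallest total (0.355) and only the compared libraries fitted (0.0775). AT1G65230 had changes of −3.51 and −1.39. Among 12 fits that left out 1 library it passed only when CNA induced 1, CNA induced 3, CNA-SmHOX32 induced 2, CNA-SmHOX32 mock 1 or CNA-SmHOX32 mock 2 was the one, with adjusted p between 0.0548 and 0.0934 in the other 7; it also failed with libraries thinned to the smallest total (0.183), a replicate block within lines (0.137) and only the compared libraries fitted (0.16).

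In CNA-KnC3HDZ against CNA, AT5G48490 (adjusted p = 0.000122, edgeR) had changes of −1.67 and −5.80. The difference passed in all 12 fits that left out 1 library and under every other setting of the fit tried. In PHB against CNA, EXPA8 (0.0208) had changes of −6.40 and −3.62. It did not pass when CNA induced 2, PHB induced 1, PHB induced 3 or PHB mock 3 was left out (adjusted p between 0.0567 and 0.449); it also failed with libraries thinned to the smallest total (0.0506). In PHB-SDdelta against PHB, AT5G48490 (0.0265) had changes of −2.61 and −5.71. Among 12 fits that left out 1 library it passed only when PHB induced 3, PHB mock 2, PHB mock 3 or PHB-SDdelta induced 1 was the one, with adjusted p between 0.0601 and 0.185 in the other 8; it also failed with a replicate block within lines (0.0976) and DESeq2 (0.0999). EXPA8 (0.0374) had changes of −3.53 and −6.40. Among 12 fits that left out 1 library it passed only when PHB mock 1, PHB-SDdelta induced 1 or PHB-SDdelta mock 2 was the one, with adjusted p between 0.0632 and 0.151 in the other 9; it also failed with libraries thinned to the smallest total (0.318).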

How the results depend on the processing

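With the threshold on the change at −0.5 the rule gave 238 genes and at −1 it gave 57; other pseudocounts, scalings, mock minimums and thinning gave 114 to 174. When low counts were kept in, the change differed among lines in 41 genes, and between pairs in 4 (PHB against CNA), 9 (CNA-SDdelta against CNA), 7 (PHB-SDdelta against PHB), 9 (CNA-KnC3HDZ against CNA), 14 (CNA-KnC3HDZ_8m against CNA-KnC3HDZ) and 2 (CNA-PpHOX32 against CNA). With libraries thinned to the smallest total, CNA-SDdelta against CNA, PHB-SDdelta against PHB and CNA-SmHOX32 against CNA gave 1 each. Fits on only the compared libraries called 131 genes lower in CNA-SDdelta, 145 in CNA-KnC3HDZ and 79 in CNA-SmHOX32, and gave 2 for PHB against CNA, 3 for CNA-SDdelta against CNA, 9 for CNA-KnC3HDZ against CNA, 23 for CNA-KnC3HDZ_8m against CNA-KnC3HDZ and 1 for CNA-SmHOX32 against CNA. DESeq2 gave 7 for CNA-KnC3HDZ against CNA and 1 for CNA-PpHOX32 against CNA. Shares over all genes were not computed for these fits or for those given below, so a general shift in calls cannot be told apart from one of the set. The cause was not tested. No direction reversed, and the other 120 recomputed results stayed on their side of the threshold, or within 1.5 times for a count.

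By the rule, leaving out 1 library at a time gave 135 to 161 genes, of which 135 to 152 belonged to the set. Leaving out replicate number 1, 2 or 3 in every group gave 122, 125 and 136 genes. Of these, 108, 105 and 109 were among the 152 genes of the set, so membership changed more than the number of genes. With 1 library left out at a time, other results moved as follows. These fits kept the gene filter, the scaling factors and a fixed trend of the spread (dispersion) from all 48 libraries. The main fit was given no fixed trend, so the loss of a library and this setting cannot be told apart. Genes called lower were 115 to 127 in CNA, 64 to 80 in CNA-SDdelta, 97 to 113 in PHB, 80 to 90 in PHB-SDdelta, 70 to 85 in CNA-KnC3HDZ, 80 to 91 in CNA-KnC3HDZ_8m, 104 to 122 in CNA-SmHOX32 and 93 to 120 in CNA-PpHOX32. Each of these ranges lay below the count of the main fit. The mock level differed in 68 to 85 genes and the change among lines in 21 to 29. Pairs gave 0 to 3 (PHB against CNA), 0 to 1 (CNA-SDdelta against CNA), 0 to 4 (PHB-SDdelta against PHB), 1 to 5 (CNA-KnC3HDZ against CNA), 5 to 8 (CNA-KnC3HDZ_8m against CNA-KnC3HDZ), 1 to 5 (CNA-SmHOX32 against CNA) and 0 to 1 (CNA-PpHOX32 against CNA). The transcript named by the construct moved from 1.30 to 1.79 on the log2 scale in CNA-KnC3HDZ (called in 1 of 6 fits), 1.35 to 2.03 in CNA-KnC3HDZ_8m (3 of 6), 0.94 to 2.04 in CNA-SmHOX32 (2 of 6) and 1.30 to 1.72 in CNA-PpHOX32 (3 of 6).

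Over genes at or above 10 CPM the replicate numbers showed little pairing of the samples. Correlations of deviations within a line ran from −0.062 to 0.200, with 2 of 24 over 0.1 and no line with all 3 over 0.1. The highest was that of PHB replicate 1. Relative to all genes, the set there deviated from its group by 0.28 in the mock and 0.24 in the induced library. In PHB-SDdelta replicate 1 these values were 0.10 and −0.10. Whether single lines were paired is not settled by this check. With a replicate block within lines, CNA-SDdelta against CNA and PHB-SDdelta against PHB gave 1 gene each, the change differed among lines in 25 genes, and 93 (CNA-SDdelta) to 135 (CNA) genes were called lower per line. With a block across all lines the mock level differed in 80 genes. No paired analysis within lines was possible for mock levels because each line has 1 mock group. Depth limits the thinly counted genes BBX16, AT1G65230, EXPA8 and AT5G48490, whose induced libraries hold few counts.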

Other observations

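Genes outside the set followed its mean level closely over the 48 libraries, which share depth and the treatment. By Pearson's r with the mean standardised log2 level of the 152 genes, the nearest 5 were NPQ4 (0.971), RBCS1B (0.969), LHCB2.2 (0.950), FBA2 (0.945) and PSBY (0.943). NPQ4, LHCB2.2, PSBY and RBCS1B were left out by the rule, and FBA2, a plastid aldolase, missed the threshold with −0.65 in CNA-SDdelta. Within the set r ran from 0.355 (MLP34) to 0.957 (AT3G47070), with a median of 0.844.

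Within groups, where treatment and line are constant, genes of the set also moved together between replicate libraries. The mean correlation between pairs of genes, after the group means were taken away, was 0.147 in the set, against 0.022 over genes at or above 10 CPM in mock. It was 0.478 among photorespiration genes, 0.413 among chlorophyll genes, 0.341 among NDH genes, 0.289 among those of carbon fixation and 0.183 among those of plastid gene expression. It was below that of the set among genes of the thylakoid and light reactions (0.134), regulators (0.107) and genes of growth and the wall (0.0818). The libraries whose set stood farthest from their group, relative to all genes, were CNA-PpHOX32 induced 1 (0.39 on the log2 scale), CNA-SmHOX32 induced 2 (−0.31), PHB mock 1 (0.28), PHB induced 1 (0.24) and CNA-SmHOX32 mock 3 (0.22).

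Of the other lists, the 19 genes of leaf starch breakdown and the 9 of carotenoid synthesis held no gene of the set, with 3 and 2 below 0 in all 8 lines. Of 12 genes that protect against cold and dehydration, 8 stood above 0 in all 8 lines. No share over all genes was computed for these counts. Among all genes with a mean of at least 10 CPM in the induced libraries, 42 were higher by 0.7 or more in every line.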
